A study of Mus musculus with 24 samples.

Results

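The mouse Hox genes are 39 protein-coding genes in 4 clusters, and they were taken here as all GRCm38 genes named Hoxa, Hoxb, Hoxc or Hoxd with a number, among 21900 protein-coding genes of the gene table. HoxA (11 genes) lies at chr6:52155367-52260880, HoxB (10 genes) at chr11:96194316-96368254, HoxC (9 genes) at chr15:102921131-103036856 and HoxD (9 genes) at chr2:74668225-74765142. Accessible intervals that overlapped a Hox gene body extended by 5 kb on each side were counted as Hox intervals. They were 158 of 299780 intervals in untreated cells and 158 of 272268 in treated cells. All groups were E14 cells, a mouse embryonic stem cell line, kept on gelatin with serum and leukemia inhibitory factor (LIF). Of the 3 lines 1 was unmodified (WT) and 2, named Smad2_KO1 and Smad2_KO2, were knockouts of Smad2. A line was sampled as Ctrl, without inhibitor, and as Paused, after 12 h with 200 nM of the mTOR inhibitor INK128. ATAC-seq, in which the Tn5 transposase cuts open chromatin, was run on 50000 cells per library, with 4 libraries in each of the 6 groups and 24 in all. How the knockouts were made, whether each knockout line is 1 clone, and whether replicates were separate cultures is not given in the sources used here. The 2 knockout lines are called clones below for short. P-values therefore measure the spread between these libraries.

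Hox genes encode homeodomain transcription factors that assign position along the head-to-tail axis. Their order on the chromosome follows the order in which they are switched on: genes of low number (paralogue groups 1 to 3, called anterior here) act early and toward the head, and genes of high number (groups 9 to 13, posterior) act late and toward the tail. In embryonic stem cells the clusters are known as large Polycomb domains, mostly silent but poised at CpG-rich promoters. Smad2 carries signals of Nodal and activin from the cell surface to the nucleus, and by its title the study asked what this signal does in developmental pausing, a dormant state that mTOR inhibition brings on. In bulk ATAC-seq, fewer cells with an open site and a less open site in every cell cannot be told apart.

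Reads in intervals, in megareads (M), numbered 11.8 M to 16.5 M per library in Ctrl and 11.5 M to 20.0 M in Paused. Every Paused Smad2_KO1 library (14.9 M to 17.1 M) was deeper than every Paused WT library (11.5 M to 14.8 M), so depth and line cannot be told apart in that comparison. Of 8 embryonic stem cell markers, 7 had an interval within 1 kb. The strongest interval of each gave a median normalised signal of 383 in Ctrl and 458 in Paused. All tested intervals had medians of 22.4 and 25.7, but the strongest interval of a gene is high by choice. By the same rule 5 neural markers had medians of 239 and 242, and 29 Polycomb genes 254 and 302. These levels therefore do not check cell identity. The strongest interval of Smad2 itself read 301 to 410 in Ctrl and 336 to 534 in Paused and was not called in either clone, so accessibility at this interval does not check the knockout. The share of all signal that fell in the top decile of intervals by level was 48.1%, 46.4%, 44.7% and 47.9% in Ctrl WT replicates 1 to 4 and 50.7%, 47.5%, 46.4% and 50.5% in Paused WT replicates 1 to 4. In the knockout libraries it was 42.9% to 45.8% in Ctrl and 44.1% to 46.9% in Paused. In Paused, WT replicates 1 and 4 had the highest shares. They were also the WT libraries with the highest Hox sums, and it was by those sums that they were chosen to be left out in an alternative added after seeing the data. Leaving them out therefore lowers the WT level of these clusters by construction, and a pair that holds 1 of them, WT replicates 3 and 4, was left out for comparison.

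RefSeq promoter windows of GRCm38.p6 (250 bases before to 50 bases after a start) matched 22 of the 39 genes with 24 windows, and 3 are printed to show how the Hox promoters that held an interval differ. Capitals mark CpG dinucleotides. Hoxb1 is the single matched promoter whose interval was called in both clones (in Paused), Hoxd13 has the most accessible of the matched promoters, and Hoxa13 has the most CpG.
Hoxb1 promoter, chr11:96365508-96365807, + strand: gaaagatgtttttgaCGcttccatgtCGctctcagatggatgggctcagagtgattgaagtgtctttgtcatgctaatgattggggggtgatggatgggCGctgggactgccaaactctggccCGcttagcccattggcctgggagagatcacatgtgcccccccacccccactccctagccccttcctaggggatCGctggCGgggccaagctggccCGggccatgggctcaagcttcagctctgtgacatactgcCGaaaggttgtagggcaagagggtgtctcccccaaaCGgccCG
Hoxd13 promoter, chr2:74667975-74668274, + strand: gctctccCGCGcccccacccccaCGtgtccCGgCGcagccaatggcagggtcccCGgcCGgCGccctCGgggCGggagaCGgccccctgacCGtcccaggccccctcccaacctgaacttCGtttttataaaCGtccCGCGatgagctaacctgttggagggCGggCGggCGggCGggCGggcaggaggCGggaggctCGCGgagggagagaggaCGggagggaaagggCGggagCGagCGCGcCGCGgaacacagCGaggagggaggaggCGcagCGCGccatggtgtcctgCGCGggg
Hoxa13 promoter, chr6:52260831-52261130, - strand: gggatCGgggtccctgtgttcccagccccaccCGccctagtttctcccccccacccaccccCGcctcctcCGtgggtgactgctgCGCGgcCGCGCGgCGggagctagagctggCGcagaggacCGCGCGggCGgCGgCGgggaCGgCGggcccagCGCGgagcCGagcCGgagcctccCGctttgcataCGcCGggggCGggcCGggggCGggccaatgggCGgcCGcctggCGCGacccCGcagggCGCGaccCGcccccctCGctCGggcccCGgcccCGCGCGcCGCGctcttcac

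The Hoxb1 window holds 10 CpG, the Hoxd13 window 37 and the Hoxa13 window 45, against a median of 14.5 over the 24 Hox windows and 7 over all 32851 windows of the table. Of the 24 Hox windows 9 held an interval in Ctrl, and the same 9 windows held one in Paused. Those 9 had a median of 26 CpG (10 to 45) and the 15 without an interval a median of 12 (4 to 25). The composite motif TGATNNAT of Pbx-Hox protein pairs, searched on both strands, was in 4 of 24 Hox windows (Hoxa2, Hoxb1, Hoxb8 and Hoxd11) and in 8.85% of all windows. In Hoxb1, known for a Pbx-Hox element through which it keeps up its own expression, the match is TGATGGAT at chr11:96365596-96365603, 162 bases before the start site. It lies inside the Ctrl interval at this promoter and outside the Paused one. The Smad-binding sequence CAGAC, searched on both strands, was in 9 of 24 Hox windows (37.5%) and in 49.6% of all windows, and the GC-rich Smad motif GGCGC in 15 of 24 (62.5%) and in 36.9%. These matches describe letters only.

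The clusters also hold microRNA genes, whose mature sequences show the same paralogy as the Hox genes. They are printed 5′ to 3′ with the seed (bases 2 to 8) in capitals.
mmu-miR-196a-5p: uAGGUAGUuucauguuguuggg
mmu-miR-196b-5p: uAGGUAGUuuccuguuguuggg
mmu-miR-10a-5p: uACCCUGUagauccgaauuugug
mmu-miR-10b-5p: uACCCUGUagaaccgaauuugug
The miR-196 seed AGGUAGU is encoded in HoxA, HoxB and HoxC, and the miR-10 seed ACCCUGU in HoxB and HoxD. Both families are known to target Hox messages. The interval nearest to Mir196a-1 in HoxB, outside the 5 kb window, had higher means in the clones, at 9.48 ± 1.82 in Ctrl WT (SD, n = 4), 18.8 ± 8.63 in Smad2_KO1 and 15.6 ± 5.80 in Smad2_KO2, and was not called (limma, adjusted p = 0.0647 and 0.193). The one nearest to Mir196a-2 in HoxC was at 22.6, 14.0 and 13.6 and the one at Mir10b in HoxD at 12.2, 11.4 and 11.4 on average in the same lines, neither of them called. The interval nearest to Mir196b was at 80.2 ± 9.35 in Ctrl WT (SD, n = 4), 71.3 ± 9.44 in Smad2_KO1 and 76.4 ± 6.79 in Smad2_KO2, and the one nearest to Mir10a is the Hoxb4 interval described below. Inside Hoxc5, the interval nearest to Mir615 had a Ctrl signal of 52.6 ± 7.98 in the WT libraries, 34.8 ± 5.78 in those of Smad2_KO1 and 31.5 ± 13.4 in those of Smad2_KO2 (SD, n = 4 each). It was called in Smad2_KO2 (limma, adjusted p = 0.00673) and not in Smad2_KO1 (adjusted p = 0.0556). The clones were not called different from each other at any Hox interval, or at any other tested interval.

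Every one of the 39 genes had an interval within 1 kb of its body in both tables, shared between neighbours so that 38 (Ctrl) and 37 (Paused) intervals were distinct. Interval density was even: 3.17 to 3.83 intervals per 10 kb of covered sequence over the clusters in Ctrl and 3.02 to 4.01 in Paused. Level was not, although nearly all intervals have the same width. The mean signal of a gene's strongest interval ran from 12.2 (Hoxb7) to 316 (Hoxc13) in Ctrl, with a median of 78.6, and from 27.6 (Hoxa2) to 394 (Hoxc13) in Paused, with a median of 105.2. The most accessible interval of all, chr15:102920701-102920901, lay 230 bases outside Hoxc13, a posterior gene of hair and nail, and read 329 ± 44.1 in Ctrl WT (SD, n = 4). It was followed by chr11:96190288-96190488, 3828 bases from Hoxb13 (277 ± 40.2), and by chr11:96311690-96311890 inside Hoxb3 (202 ± 20.2). The Hoxc13 and Hoxb13 intervals overlapped within 1 SD of their means. Hoxb13 and Hoxc13 are the last genes of their clusters by paralogue number.

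In Ctrl cells the Hox intervals lay lower in both Smad2 knockout clones than in WT, with modest differences at many intervals. Of 155 tested Hox intervals, 10 were called lower in both clones and 0 higher. Over the whole table the same rule called 7.15% of intervals, 3.2% lower and 3.95% higher. The 10 are 6.45% of the Hox intervals, near the background for either direction and above it for lower calls. A call in both clones needs an adjusted p under 0.05 in either clone's own comparison and 1 direction of change, from limma on log2(signal + 1). The clones share the 4 WT libraries, so they are given side by side. The median log2 change of the 155 was -0.25 in Smad2_KO1 and -0.23 in Smad2_KO2, with 127 and 123 of them below 0. Over all 282089 tested intervals it was 0.08 and 0.07, with 40.6% and 42.2% below 0. With DESeq2 size factors in place of the authors' scaling, the medians over all intervals moved to 0.00 and 0.01, those of the Hox intervals to -0.34 and -0.29, and 15 Hox intervals were called lower and 0 higher. Under that scaling 4.82% of all intervals were called lower and 2.79% higher, so the balance of directions over the table turned as well. Without WT replicates 1 and 4 the Hox medians were -0.20 and -0.17 with 6 intervals called, all lower. That is 4.05%, where all intervals gave 1.58% lower and 1.94% higher. Without WT replicates 3 and 4 there were 4, all lower (2.72%), where all intervals gave 1.29% and 2.04%. Without Smad2_KO1 replicate 2 there were 6, all lower (3.87%), where all intervals gave 2.79% and 3.1%.

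By clone, Smad2_KO1 had 19 Hox intervals called in Ctrl, all lower, where 11.6% of all tested intervals were called (4.52% lower, 7.1% higher). Smad2_KO2 had 15, of which 14 were lower, where 10.7% were called (4.85% lower, 5.83% higher). Smad2_KO1 against Smad2_KO2 gave 0 calls among 155, where limma called 0.00% of all intervals. At an unadjusted p under 0.05 this comparison gave 4 of 155 Hox intervals (2.58%), where all tested intervals gave 3.28%. Among the Hox intervals, edgeR and DESeq2 on the recovered reads also called 0. The Smad2_KO1 count was 7 without its own replicate 2, 10 without its replicate 1, 12 without its replicate 3 and 11 without WT replicate 4. Shares of all intervals by clone were not counted for these runs. Over all intervals, lower calls in both clones fell as well, from 3.2% to 2.79%, 2.48%, 2.63% and 2.23% in the same order. The smaller counts thus do not set the Hox intervals apart. In the authors' deposited table, which compares the 8 knockout with the 4 WT libraries, 22 of 158 Ctrl Hox intervals were under the 0.05 false discovery rate and lower, and 1 was higher. Over all its intervals, 5.93% were lower and 6.27% higher. All 8 knockout libraries lay below all 4 WT libraries at 16 of 155 Hox intervals and above them at 0, where all tested intervals gave 3.32% and 4.16%, or 7.48% in either direction.

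**Figure D1:**
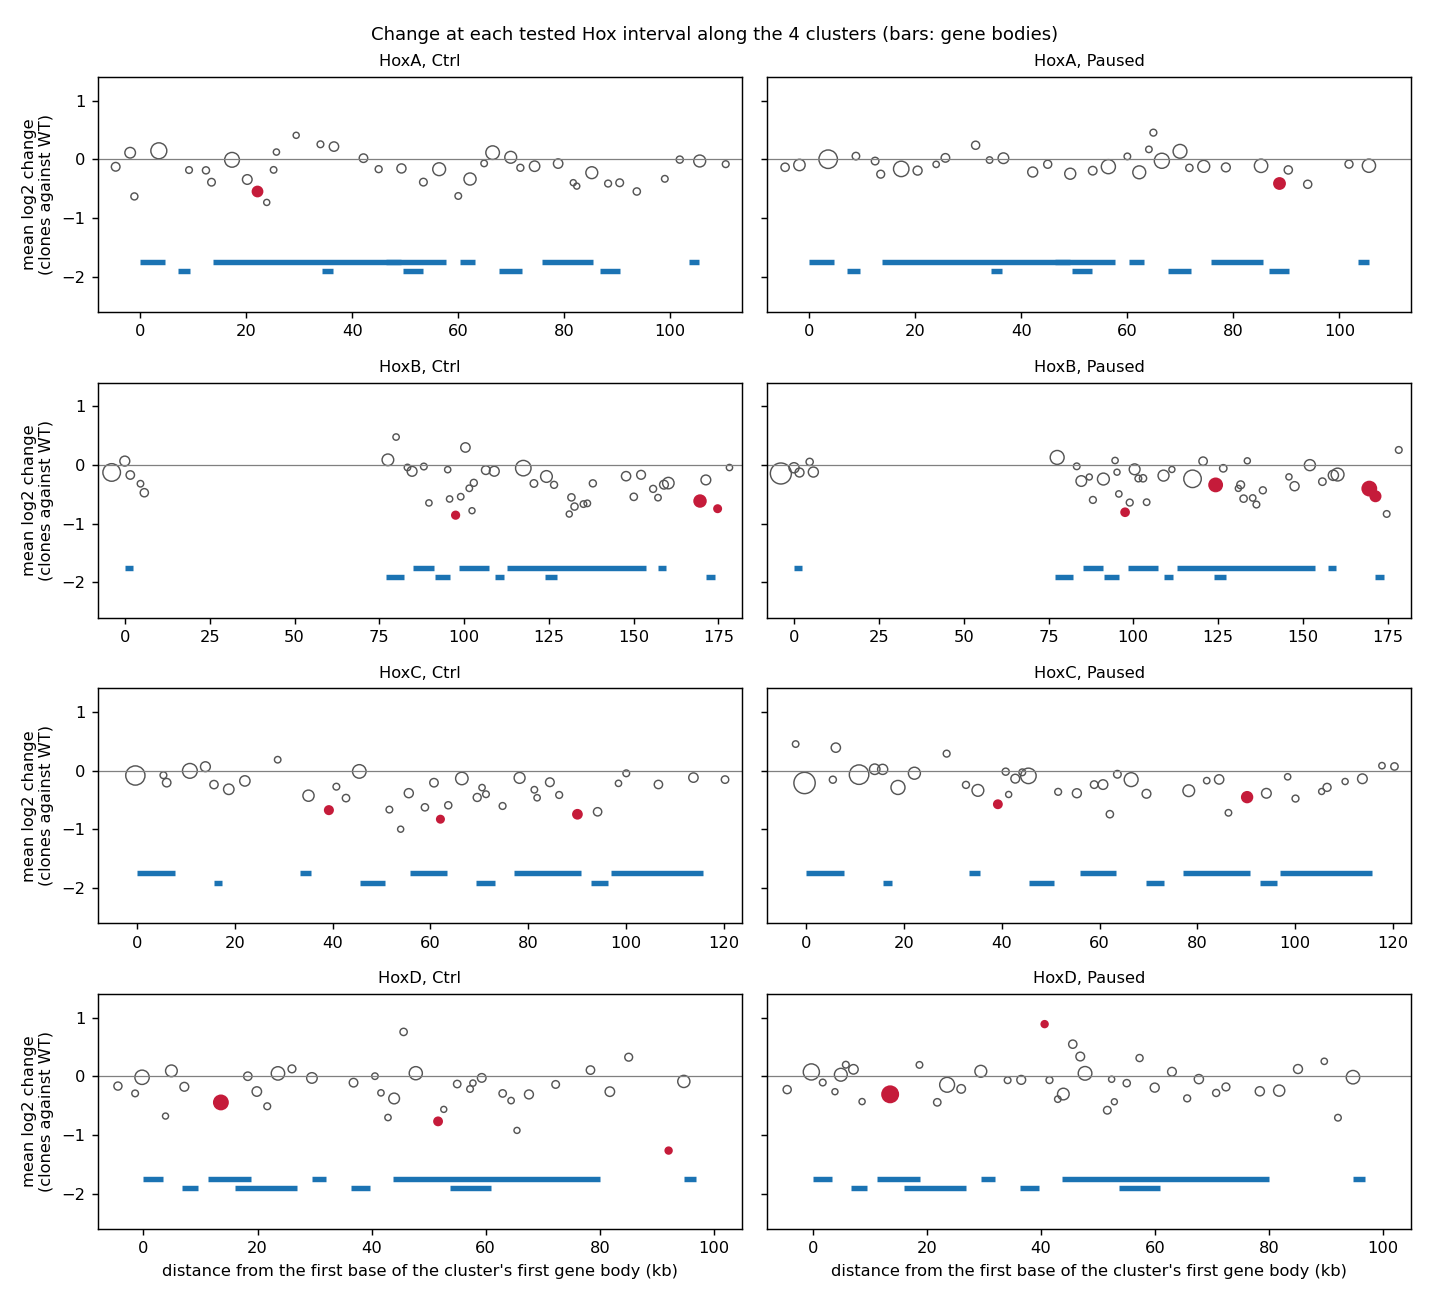
Mean log2 change of both clones against WT at each tested Hox interval (y axis), by distance in kb from the first base of the cluster's first gene body (x axis), with 1 row per cluster and 1 column per treatment. Circle area grows with mean signal, filled red circles were called in both clones, and blue bars are gene bodies. In Ctrl most circles lie below 0 along all 4 clusters (127 of 155 in Smad2_KO1), while most of the largest circles are near 0.

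The summed signal of a cluster shows how far the lines were apart. The HoxB sum in Ctrl was 2245, 1998, 2039 and 2158 in WT replicates 1 to 4, then 1850, 1573, 1819 and 1861 in Smad2_KO1 and 1765, 1731, 1969 and 1808 in Smad2_KO2. No knockout library reached the lowest WT library, and the log2 ratio to WT was -0.25 in Smad2_KO1 and -0.21 in Smad2_KO2. The separation depended on the scaling: in signal per megaread (M) of the library's total over intervals, the lowest WT library was at 142 and the highest Smad2_KO2 library at 149. The HoxC sum in Ctrl was 2283, 2114, 2086 and 2201 in WT, then 1896, 1647, 1909 and 1874 in Smad2_KO1 and 1819, 1835, 1945 and 1827 in Smad2_KO2. Again WT and the knockouts did not overlap, with log2 ratios of -0.25 and -0.23, and they were also apart per M of total (WT from 150.5, knockouts up to 147). In HoxA and HoxD the lines overlapped. HoxA in Ctrl was 2142 ± 196 in WT, 1922 ± 150 for Smad2_KO1 and 2031 ± 69.4 for Smad2_KO2 (SD, n = 4 each), and HoxD was 1883 ± 140, 1685 ± 98.3 and 1708 ± 83.6. Without WT replicates 1 and 4 the Smad2_KO2 ratio of HoxA changed sign, from -0.08 to 0.04. Sums over chosen intervals were given no test.

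**Figure D2:**
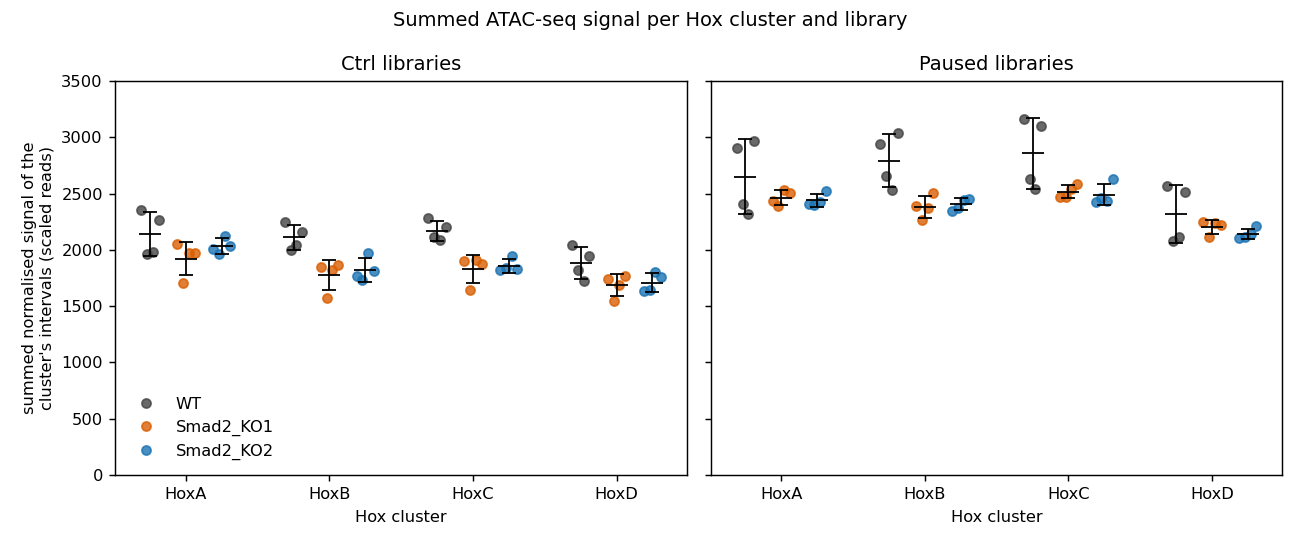
Summed normalised signal of each cluster's intervals (y axis, scaled reads) for the 4 Hox clusters (x axis), in Ctrl at left and Paused at right. Points are single libraries coloured by line, and black bars give the mean and SD of 4 libraries. In Ctrl the WT points of HoxB and HoxC lie above all knockout points, and in Paused WT replicates 1 and 4 form the upper pair in every cluster.

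Anterior genes carried 5 of the 10 Ctrl calls, at Hoxb1 (2), Hoxa3, Hoxd3 and Hoxd1. Hoxb1 patterns the hindbrain segment that gives rise to facial motor neurons. An interval 1735 bases before its body (chr11:96363811-96364011) read 139, 131, 151 and 107 in WT replicates 1 to 4, 97.5, 69.9, 76.8 and 86.6 in Smad2_KO1, and 96.2, 91.9, 81.8 and 83.5 in Smad2_KO2. All 8 knockout libraries were below all 4 WT libraries. The log2 change was -0.67 ± 0.13 (SE) in Smad2_KO1 (adjusted p = 0.000395) and -0.56 ± 0.13 in Smad2_KO2 (adjusted p = 0.00266). An interval on the other side of the gene, 751 bases after it (chr11:96369005-96369205), read 29.9, 25.1, 49.3 and 26.96 in WT, 17.9, 15.4, 21.6 and 19.6 in Smad2_KO1, and 19.0, 19.1, 22.3 and 14.1 in Smad2_KO2. It fell by 0.74 and 0.75 on the log2 scale (SE 0.23 each), WT replicate 3 was far above the rest, and the call was lost without that library, without Smad2_KO1 replicate 1 or 2 and without Smad2_KO2 replicate 4. The Hoxb1 promoter interval between them was not called in Ctrl, at 71.3 ± 10.8 in WT, 59.0 ± 14.5 in Smad2_KO1 and 60.6 ± 5.44 in Smad2_KO2.

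The largest fall among the Ctrl calls was 2583 bases before Hoxd1, an anterior gene with roles in sensory neurons (chr2:74760197-74760397). Its signal was 20.3, 18.8, 36.1 and 30.2 in WT, 14.5, 7.2, 15.0 and 8.09 in Smad2_KO1, and 13.0, 12.7, 7.44 and 6.04 in Smad2_KO2, so every knockout library was below every WT library. The log2 change was -1.18 ± 0.30 (SE) in Smad2_KO1 (adjusted p = 0.0056) and -1.35 ± 0.30 in Smad2_KO2 (adjusted p = 0.00157), the single Hox interval called with a change of at least 1 in both clones. Inside Hoxd3, a gene of the upper cervical vertebrae, chr2:74719775-74719975 read 53.4, 50.2, 44.9 and 45.3 in WT, 28.2, 39.1, 20.6 and 32.3 in Smad2_KO1, and 21.0, 37.3, 35.1 and 18.1 in Smad2_KO2. It fell by 0.70 and 0.84 with no overlap between WT and knockouts, and the call was lost without Smad2_KO1 replicate 3. Inside Hoxa3, which is needed for the thymus and parathyroid, chr6:52177387-52177587 read 97.2, 61.8, 93.1 and 90.6 in WT and 45.1 to 67.0 in the knockouts. WT replicate 2 lay among the knockouts there. The log2 changes were -0.52 ± 0.15 and -0.56 ± 0.15, and the call was lost without WT replicate 1, 3 or 4, without Smad2_KO1 replicate 1 or 2 and without Smad2_KO2 replicate 1.

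The central genes carried 2 calls. Inside Hoxc6, a thoracic gene also used in mammary gland and limb, chr15:103011122-103011322 read 70.5, 68.1, 70.1 and 60.4 in WT, 33.3, 38.0, 30.9 and 45.0 in Smad2_KO1, and 44.1, 35.5, 41.4 and 53.3 in Smad2_KO2. The lines did not overlap. The log2 change was -0.86 ± 0.16 (SE) in Smad2_KO1 (adjusted p = 0.000278) and -0.63 ± 0.16 in Smad2_KO2 (adjusted p = 0.00826). Next to Hoxb6, another trunk gene, chr11:96291726-96291926 lay 888 bases from the body and read 36.3, 35.8, 42.7 and 35.6 in WT, 21.4, 13.4, 27.2 and 18.5 in Smad2_KO1, and 17.0, 27.3, 19.1 and 22.1 in Smad2_KO2. It fell by 0.91 and 0.80 (SE 0.21 each), with every WT library above every knockout library. These 2 calls, with those before Hoxb1 and Hoxd1, were kept when any single library was left out.

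Posterior genes carried 3 calls. Hoxd11, a gene of the sacral spine and the forearm, had the one call at a top interval of its cluster. Inside its body, chr2:74681698-74681898 read 198.7, 187.2, 180.7 and 200.6 in WT, 143, 107, 172 and 167 in Smad2_KO1, and 123, 134, 147 and 141 in Smad2_KO2. WT stood above both clones in all libraries, with log2 changes of -0.40 ± 0.12 (SE, adjusted p = 0.0188) and -0.49 ± 0.12 (adjusted p = 0.00376), and the call was lost without WT replicate 4 or Smad2_KO1 replicate 1 or 2. Between Hoxc11 and Hoxc10, 3585 bases from Hoxc11, chr15:102960286-102960486 read 51.9 on average in WT and 42.1 to 64.6 over its libraries, against 25.7 to 35.8 in the 8 knockout libraries. Inside Hoxc9, a gene of thoracic motor neurons, chr15:102983099-102983299 read 26.7, 37.6, 37.2 and 33.4 in WT and 12.2 to 27.7 in the knockouts, with 1 knockout library above the lowest WT library. The log2 changes were -0.65 and -0.69 near Hoxc11 and -0.87 and -0.79 in Hoxc9. The Hoxc11 call was lost without WT replicate 3 or Smad2_KO1 replicate 2, and the Hoxc9 call without WT replicate 3, Smad2_KO1 replicate 3 or Smad2_KO2 replicate 2.

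**Figure D3:**
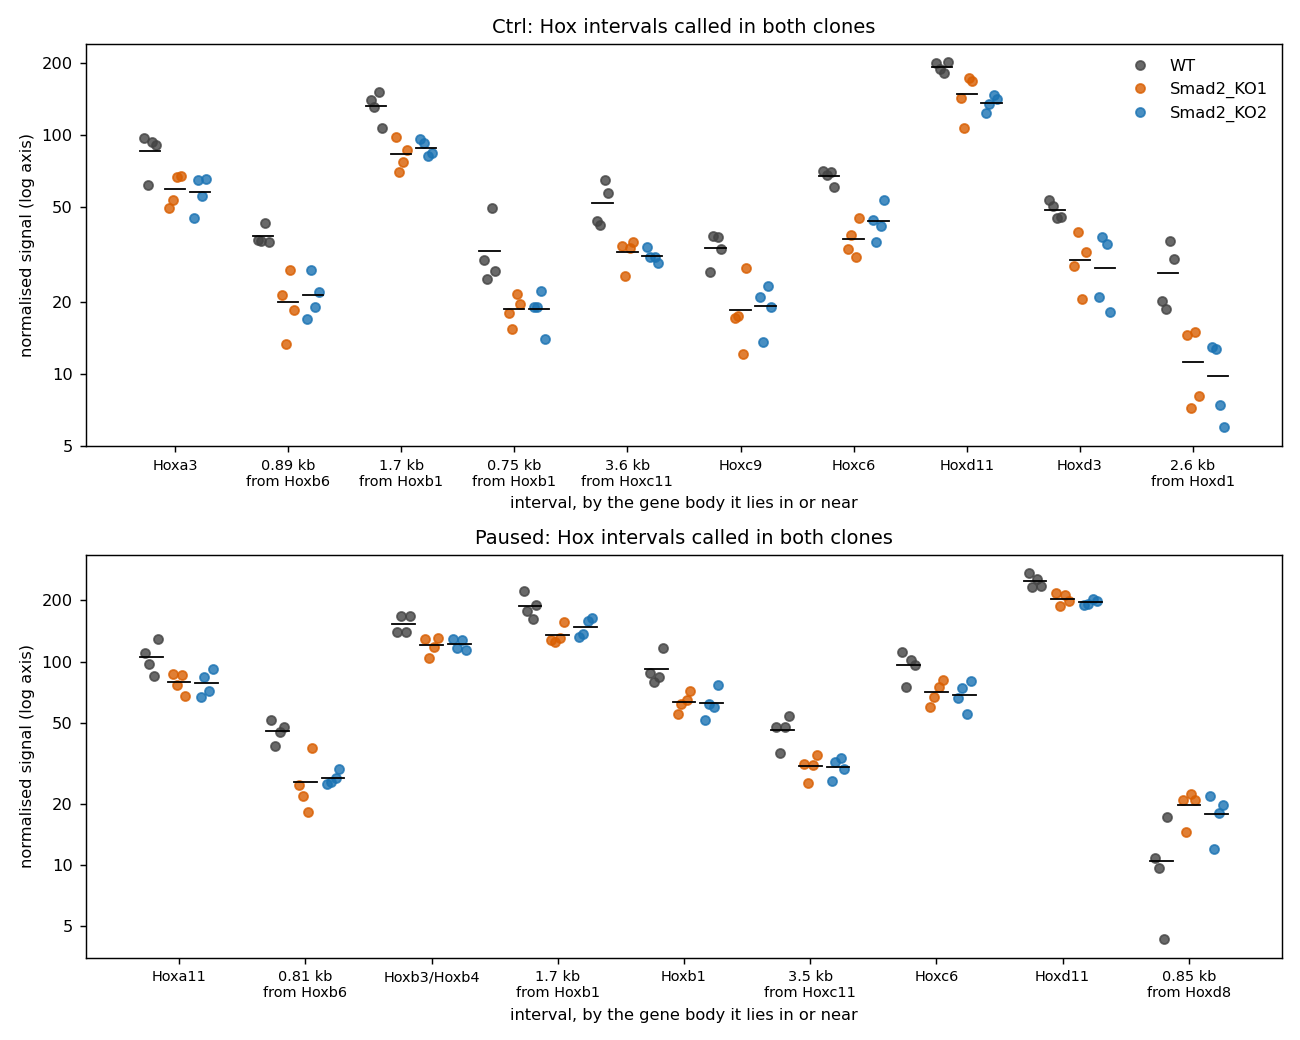
Normalised signal on a log axis (y axis) in each library at the Hox intervals called in both clones (x axis, by the gene body an interval lies in or its distance to the nearest one), in Ctrl above and Paused below. Points are libraries coloured by line, and short black lines are means of 4 libraries. In Ctrl all 10 lie lower in the knockouts, and in Paused 8 lie lower and the interval by Hoxd8 higher.

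Of the 8 top intervals, 2 per cluster, 1 (Hoxd11) was called in Ctrl, a count too small to set against the 7.15% called over all intervals. At Hoxc13 the Ctrl log2 change was -0.12 ± 0.10 (SE) in Smad2_KO1 and -0.05 ± 0.10 in Smad2_KO2, and at the Hoxd13 promoter -0.04 ± 0.12 and 0.00 ± 0.12. Of the 9 Ctrl intervals at promoter windows 0 were called, which at that share says nothing particular of promoters, and their median change was -0.14 and -0.10, against -0.27 and -0.25 for the 146 other tested Hox intervals. By level, the Hox intervals in the lowest decile of the Ctrl table (10 intervals, signal 5.95 to 10.9) had a median change of -0.71 averaged over the clones, where all intervals of that decile had 0.23. In the sixth decile (19 intervals) the values were -0.47 and 0.12, in the ninth (25 intervals) -0.12 and -0.03, and in the top decile (14 intervals) -0.02 and -0.07. All deciles but 2 in Ctrl held fewer than 20 Hox intervals. Over the whole table the change thus went from above 0 at weak to below 0 at strong intervals, and the Hox intervals lay below that line in 9 of 10 deciles of Ctrl and 9 of 10 of Paused. The anterior, central and posterior groups had Ctrl medians of -0.32, -0.26 and -0.23 in Smad2_KO1 and -0.25, -0.28 and -0.20 in Smad2_KO2, over 62, 36 and 57 tested intervals, with 5, 2 and 3 calls.

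**Figure D4:**
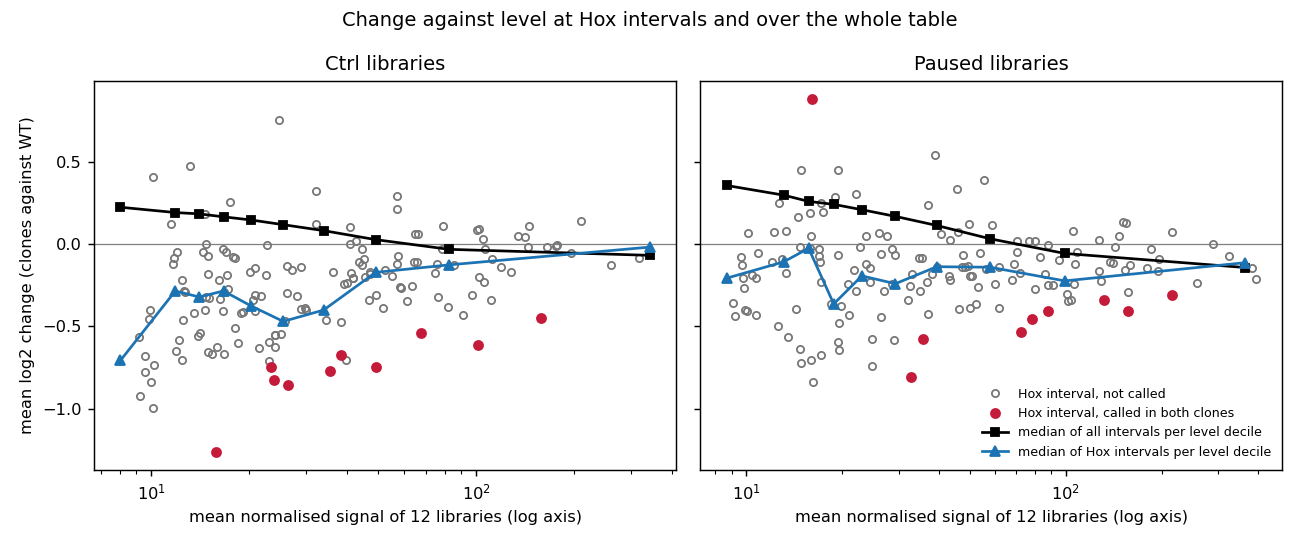
Mean log2 change of both clones against WT (y axis) by mean normalised signal of 12 libraries on a log axis (x axis), in Ctrl at left and Paused at right. Circles are Hox intervals, red where called in both clones, blue triangles are medians of Hox intervals per level decile, and black squares are medians of all tested intervals per decile. The blue line lies below the black one in 9 of 10 deciles of each treatment, and the lines meet at the strongest intervals.

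The intervals next to 3 of the clusters had higher medians than the clusters in both clones and both treatments. Those next to HoxA had a higher median than HoxA in Smad2_KO1 and a lower one in Smad2_KO2. In the 100 kb beyond the window on each side, the HoxB flanks had Ctrl medians of 0.25 in Smad2_KO1 and 0.25 in Smad2_KO2 over 55 tested intervals, where HoxB itself had -0.36 and -0.27 over 42 and all chromosome 11 intervals had 0.04 and 0.03. The flanks of HoxC had -0.02 and -0.05 over 23 (HoxC -0.25 and -0.29), those of HoxD 0.04 and 0.08 over 22 (HoxD -0.18 and -0.20), and those of HoxA -0.11 and -0.17 over 31 (HoxA -0.17 and -0.12). In Paused the flanks had -0.04 and -0.23 for HoxA, 0.15 and 0.08 for HoxB, -0.02 and -0.04 for HoxC, and 0.30 and 0.23 for HoxD, where the clusters had -0.07 and -0.14, -0.21 and -0.21, -0.16 and -0.21, and -0.05 and -0.15. The difference between clusters and flanks was not tested. At the edge of the 5 kb window, the interval nearest to it inside and the one nearest outside showed no pattern shared by both treatments. The window surrounds each gene body, so some of these intervals lie in gaps between genes of a cluster, not at its outer end. In Ctrl this holds for the outside intervals of HoxA and HoxB and the inside intervals of HoxC and HoxD. In Ctrl the changes in Smad2_KO1 and Smad2_KO2 were 0.10 and -0.26 inside and -0.32 and -0.23 outside for HoxA, and 0.20 and -0.29 inside and 0.82 and 0.61 outside for HoxB. For HoxC they were -0.23 and -0.32 inside and 0.01 and 0.55 outside, and for HoxD 0.41 and 0.24 inside and 0.07 and 0.03 outside. In Paused, HoxB had 0.15 and 0.36 inside and -0.23 and -0.25 outside, and the outside interval was also the lower one in both clones for HoxA, HoxC and HoxD.

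After 12 h of mTOR inhibition the Hox intervals again lay lower in the clones by median. How their share of calls compared with that of all intervals depended on the scaling and the test. Of 156 tested Paused Hox intervals, 8 were called lower in both clones and 1 higher, 5.77% in all, where 13.9% of all intervals were called (4.92% lower, 9.01% higher). With size factors 21 were called lower (13.5%) and 0 higher, where all intervals gave 8.87% lower and 5.92% higher. With edgeR 22 were called lower (14.1%) and 0 higher, where all gave 9.02% and 5.5%. With DESeq2 on the recovered reads 12 were called lower (7.69%) and 0 higher, where all gave 6.51% and 2.39%. With equal library totals 7 were lower (4.49%) and 2 higher, where all gave 4.21% and 10.5%. The median log2 change was -0.13 in Smad2_KO1 and -0.18 in Smad2_KO2, with 114 and 113 of 156 below 0, against 0.12 and 0.11 over all intervals. Size factors moved the medians over all intervals by -0.11 and -0.10, to 0.01 and 0.01, and the Hox medians to -0.24 and -0.28. The lower calls were lost without WT replicates 1 and 4. Then 0 Hox intervals were called lower and 2 higher (1.32%), where all intervals gave 2.63% lower and 4.68% higher. The medians were -0.06 and -0.07, where all intervals had 0.09 and 0.08. Without WT replicates 3 and 4, 2 were called, both lower (1.3%), where all intervals gave 3.6% lower and 7.3% higher. Leaving out WT replicate 1 alone left 3, all lower, where all intervals gave 3.82% lower and 7.47% higher. Leaving out Smad2_KO1 replicate 2 alone left 3 lower and 2 higher, where all intervals gave 3.54% and 6.25%. Leaving out Smad2_KO2 replicate 1 alone left 5, all lower, where all intervals gave 3.95% and 6.89%.

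Per clone, Smad2_KO1 had 15 Paused Hox intervals called, 14 lower, where 19.4% of all tested intervals were called (6.56% lower, 12.9% higher). Smad2_KO2 had 19, 16 lower, where 19.3% were called (6.86% lower, 12.4% higher). Without WT replicates 1 and 4 these counts were 4, of which 2 were lower, and 6, of which 1 was lower. Shares of all intervals by clone were not counted for that run. Smad2_KO1 against Smad2_KO2 gave 0 calls among 156 (0.00% of all intervals), and 0 by edgeR and by DESeq2. At an unadjusted p under 0.05 it gave 0 as well, where all tested intervals gave 1.97%. By the authors' deposited table, at the same rate, 22 of 158 Paused Hox intervals were lower and 3 higher, with 8.96% and 12.6% over all its intervals. All 8 knockout libraries lay below all 4 WT libraries at 9 of 156 Hox intervals and above at 0, against 4.2% and 7.25% of all tested intervals, or 11.5% in either direction.

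The Paused sums show the split within WT. HoxB read 2936, 2658, 2533 and 3041 in WT replicates 1 to 4, then 2390, 2267, 2369 and 2505 in Smad2_KO1 and 2346, 2374, 2443 and 2455 in Smad2_KO2. The lowest WT library was above the highest knockout library by a small margin, which was gone per M of total (lowest WT library 168.71, highest Smad2_KO1 library 168.73). HoxA read 2902, 2411, 2316 and 2965 in WT, then 2430, 2387, 2534 and 2506 in Smad2_KO1 and 2411, 2398, 2426 and 2526 in Smad2_KO2. Here WT replicates 2 and 3 lay within or below the knockouts and WT replicates 1 and 4 above them. HoxD read 2563, 2081, 2109 and 2511 in WT and 2106 to 2248 in the knockouts, with the same split, and HoxC 3158, 2627, 2543 and 3096 in WT and 2427 to 2627 in the knockouts. Without WT replicates 1 and 4 the log2 ratios to WT were 0.06 and 0.05 in HoxA, 0.07 and 0.03 in HoxD, -0.04 and -0.06 in HoxC and -0.12 and -0.11 in HoxB. With all libraries they were -0.10 and -0.12, -0.07 and -0.11, -0.18 and -0.20, and -0.23 and -0.22. The part of the WT signal shares in these sums was not tested.

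HoxB carried 4 of the 8 lower Paused calls, and 2 of them were at Hoxb1. The promoter interval of Hoxb1 (chr11:96365642-96365842), of which 166 bases lie in the window printed above, read 87.4, 79.4, 84.2 and 117 in WT replicates 1 to 4, 55.1, 61.6, 64.8 and 71.5 in Smad2_KO1, and 51.9, 62.2, 59.5 and 76.6 in Smad2_KO2. All WT libraries were above all knockout libraries. The log2 change was -0.52 ± 0.14 (SE) in Smad2_KO1 (adjusted p = 0.00933) and -0.54 ± 0.14 in Smad2_KO2 (adjusted p = 0.00682), and the call was lost without WT replicate 4. The interval before the gene (chr11:96363828-96364028) read 222, 178, 162 and 189 in WT, 128, 125, 131 and 156 in Smad2_KO1, and 133, 137, 158 and 164 in Smad2_KO2. It fell by 0.47 and 0.34 (SE 0.11 each), with 1 Smad2_KO2 library above the lowest WT library, and the call was lost without WT replicate 1 or Smad2_KO2 replicate 1 or 2. Next to Hoxb6, chr11:96291801-96292001 read 51.8, 38.6, 45.3 and 47.7 in WT, 24.7, 21.8, 18.1 and 37.7 in Smad2_KO1, and 25.0, 25.5, 26.9 and 29.5 in Smad2_KO2. The log2 change was -0.86 ± 0.20 (adjusted p = 0.00194) and -0.75 ± 0.20 (adjusted p = 0.0063), the largest fall among the Paused Hox calls, and it was kept without any single library and lost without WT replicates 1 and 4 together.

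An interval within the bodies of both Hoxb3 and Hoxb4 (chr11:96318507-96318707), the strongest one of Hoxb4, a gene of blood stem cells, read 140, 167, 139 and 168 in WT, 129, 104, 117 and 130 in Smad2_KO1, and 129, 117, 128 and 114 in Smad2_KO2. WT and knockouts did not overlap, and the log2 changes were -0.35 ± 0.11 and -0.33 ± 0.11. It was not called with equal library totals, with an offset fitted along the mean level, or without any 1 of 6 libraries, WT replicates 2 and 4, Smad2_KO1 replicates 2 and 3 and Smad2_KO2 replicates 2 and 4. Hoxd11 again had a call at a top interval (chr2:74681701-74681901), with 271, 232, 255 and 234 in WT, 217, 188, 212 and 198 in Smad2_KO1, and 191, 191, 203 and 199 in Smad2_KO2. Every knockout library was below every WT library, and the signal fell by 0.28 and 0.33 (SE 0.09 each). This call was lost without WT replicate 1 or Smad2_KO1 replicate 2 or 4. Inside Hoxa11, a gene of forearm and uterus, chr6:52243810-52244010 read 110, 97.7, 85.2 and 128 in WT, with log2 changes of -0.40 and -0.41 and with 3 knockout libraries above the lowest WT library. The HoxC calls were the interval near Hoxc11 (chr15:102960234-102960434, -0.57 and -0.58) and the one inside Hoxc6 (chr15:103011215-103011415, -0.43 and -0.48). The calls at Hoxa11, Hoxc11 and Hoxc6 were each lost without WT replicate 1 and without several other single libraries.

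The single higher call was 852 bases from Hoxd8 (chr2:74708785-74708985). It read 10.8, 9.66, 4.32 and 17.2 in WT, 20.9, 14.5, 22.5 and 20.9 in Smad2_KO1, and 22.0, 12.0, 18.0 and 19.7 in Smad2_KO2, a weak interval with WT replicate 4 among the knockouts. The log2 change was 0.96 ± 0.30 (adjusted p = 0.0192) and 0.82 ± 0.30 (adjusted p = 0.0462). It was not called with size factors, with TMM factors of the chromosome, with the offset, or by edgeR or DESeq2, and it was lost on leaving out any 1 of 9 of the 12 libraries. Its partner in the Ctrl table had a mean change of 0.00.

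The tables were normalised separately, so Paused and Ctrl levels were not compared by a test. One to one, 109 intervals overlapped by at least 50% of each, which is 69.0% of either set. Of these 5 were called in both tables with the same sign: those by Hoxb6, before Hoxb1, by Hoxc11, in Hoxc6 and in Hoxd11. A further 4 were called in Ctrl alone and 2 in Paused alone. The mean change of the clones was below 0 in both tables at 76 of the 109, above 0 in both at 12 and opposite at 21. Pearson's r between the changes was 0.65 and Spearman's rho 0.61 over the 109 intervals, which are neighbours on 4 chromosomes and come from the same libraries within each table. At the Hoxb1 interval the mean change was -0.62 in Ctrl and -0.40 in Paused, at Hoxc6 -0.74 and -0.45, at Hoxb6 -0.86 and -0.81, and before Hoxd1 -1.27 and -0.71. A difference between treatments was not tested.

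**Figure D5:**
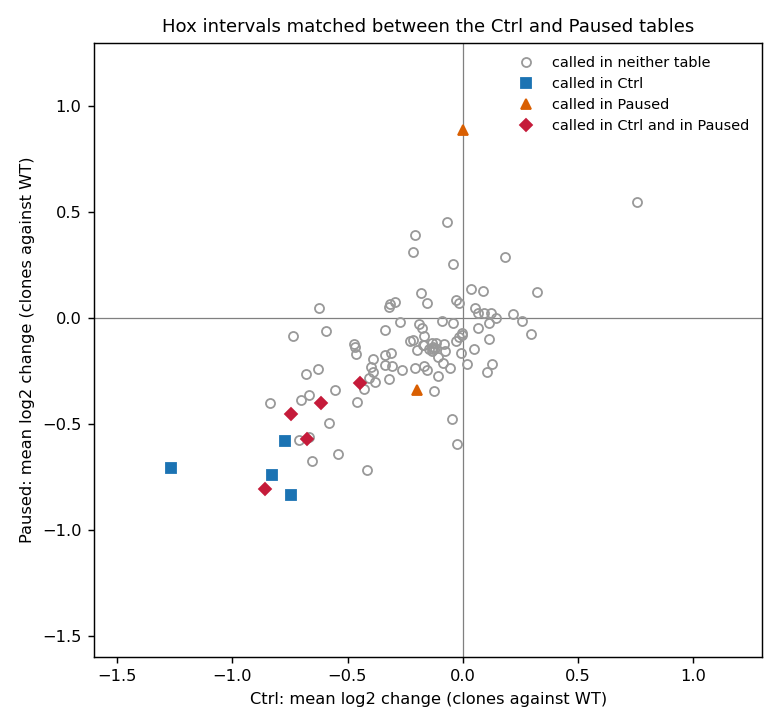
Mean log2 change of both clones against WT in Paused (y axis) against Ctrl (x axis) for the 109 Hox intervals matched between the tables, with marker shape and colour showing in which table an interval was called in both clones. The 5 intervals called in both tables lie in the lower left quadrant, and the Hoxd8 interval called in Paused lies at a Ctrl change of 0.00.

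Genes that work upstream of, with or against the Hox genes were described by their strongest interval within 1 kb, and their counts stand beside 7.15% of all intervals called in Ctrl (3.2% lower) and 13.9% in Paused (4.92% lower). Of 15 activators and patterning inputs, 1 was called lower in Ctrl, T (brachyury), the mesoderm factor that acts with Cdx and Wnt in the tail bud. In Paused 3 were lower, T, Egr2 (the hindbrain activator of Hoxb2) and Cdx1, and 1 was higher, Tbx6. T read 57.8 ± 5.29 in Ctrl WT, 34.8 ± 6.53 for Smad2_KO1 and 31.5 ± 2.83 for Smad2_KO2 (SD, n = 4 each), with log2 changes of -0.73 and -0.85. Egr2 in Paused read 254 ± 12.7 in WT, 210 ± 18.9 in Smad2_KO1 and 195 ± 6.78 in Smad2_KO2. The 9 TALE cofactors, which bind DNA together with Hox proteins, had 0 calls in Ctrl and 4 lower in Paused, at Pbx2, Pbx4, Pknox1 and Pknox2. At Pbx2 the Paused signal was 164 ± 15.5 in WT, 115 ± 10.3 in Smad2_KO1 and 122 ± 9.19 in Smad2_KO2, with changes of -0.50 and -0.42. Their median change was -0.23 and -0.21 in Paused and -0.06 and -0.10 in Ctrl, beside 0.12 and 0.11, and 0.08 and 0.07, over all tested intervals.

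Polycomb subunits, which keep Hox genes silent, had 0 calls among 29 genes in Ctrl and 4 lower in Paused (Mtf2, Phf1, Pcgf2 and Phc2), with a Paused median of -0.13 and -0.16. At 4 of 29 the Paused share is near the 13.9% of all intervals called in either direction and above the 4.92% called lower. The share of lower calls among intervals of like level was not counted. The shorter lists hold too few genes for such a comparison. Trithorax genes and the H3K27 demethylase genes, which oppose them, had 0 of 11 in Ctrl and 2 lower in Paused, Kmt2d and Kdm6b. The ParaHox genes, a sister cluster of the Hox genes, had 0 of 6 in Ctrl and 3 lower in Paused (Gsx2, Pdx1 and Cdx1). Of 7 boundary factors, 0 were called in either table. Most of these are strong intervals, and the top decile of the whole Paused table had a median change of -0.14. Among marker lists of other cell types, 1 of 4 mesendoderm genes (T) was lower in both treatments, and Eomes, Mixl1 and Gsc were not called. Of 4 fibroblast genes Thy1 was lower in both treatments and Col1a1 in Paused, Twist1 was not called, and Col1a2 had Paused changes of 0.75 and 0.51 and was called in Smad2_KO1 alone (limma, adjusted p = 0.0133 and 0.0908). In both treatments 0 of 5 neural, 0 of 5 trophoblast and 0 of 5 primitive endoderm genes were called in both clones. Cdx2, a trophoblast marker also among the activators, had Ctrl changes of -0.95 and -0.72. It was called in Smad2_KO1 alone (limma, adjusted p = 0.00865 and 0.0538). Calls in 1 clone alone are not listed for every gene. The stem cell gene Klf4 was higher in Paused, 1 of 7 with an interval. The part of these markers in the Hox values was not tested.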

How the data were processed

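ATAC-seq of 24 libraries was read from 1 deposited table per treatment. Per the submitters' processing notes, the authors used FastQC, Trim Galore, Bowtie2 2.4.1, MACS3 3.0.3, DiffBind 3.16.0 and build mm10, with roles not given. Intervals are 201 bases wide but for 12 in Ctrl and 6 in Paused. The deposited signal values are reads divided by 1 factor per library. Whole reads were recovered for 100% of values within 0.1 read, though 4 columns have a factor so near 1 that their low values carry little proof of it. The deposited tables also hold the authors' log2 fold change and their p-value and false discovery rate for knockout against WT. Handling of duplicates, Tn5 shift and mitochondrial reads is not given in the sources used here.

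Intervals with a signal of 10 or more in at least 4 libraries were tested with limma 3.58.1 in R 4.3.3 (moderated statistics, with a trend of variance on level), applied to log2(signal + 1), all 12 libraries of a treatment in 1 fit, with Benjamini-Hochberg adjustment over the table. A log2 change on this scale understates the change of weak intervals. Alternatives included edgeR 4.0.16 and DESeq2 1.42.0 on recovered reads. The fit was also run on simulated data, drawn with a fixed spread and without replicate effects. That run does not check the fit on these libraries. An interval belongs to the nearest Hox body (ties to the one listed first by position). Named were the 2 strongest intervals per cluster, up to 3 called per direction and cluster, and the strongest interval of a gene where it was called in either table. The members and lists were chosen with earlier results of these data known. Values of 1 member are not reported here. Flanks are the 100 kb beyond the window.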

Additional observations from a re-analysis of the deposited data

Results flagged for a closer look

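In groups of 4 libraries, 132 in all over the cluster sums and the named intervals, 5 held a library whose gap to its neighbour was above Dixon's 95% critical value; chance flags about 1 group in 20. In Ctrl, WT replicate 3 was highest at the interval by Hoxb6 (42.7, next 36.3). Smad2_KO1 replicate 2 had the lowest HoxB sum (1573, next 1819) and the lowest HoxC sum (1647, next 1874). Smad2_KO2 replicate 3 had the highest HoxC sum in Ctrl (1945, next 1835). In Paused, WT replicate 3 was lowest at the interval by Hoxb13 (341, next 430).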

How the results depend on the processing

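No named interval reversed under any alternative run. Of 972 results of named intervals under alternatives, 847 kept their side of the threshold, 112 lost the call and 13 gained it. Counts below are Smad2_KO1, Smad2_KO2 or both clones. Shares over all intervals moved with the settings as well. Lower calls in both clones over all intervals were 3.2% in Ctrl and 4.92% in Paused in the main run. They were 5.19% and 9.02% with edgeR, and 1.29% and 3.6% without WT replicates 3 and 4. In Ctrl, DESeq2 size factors gave 31 (Smad2_KO1), the offset along the mean level 35 (Smad2_KO1) and 17 (both), TMM of the chromosome 34 (Smad2_KO1) and 16 (both), and edgeR 37, 23 and 20. DESeq2 on the recovered reads gave 11 (both). For both clones, all intervals gave 3.87% lower and 2.62% higher with the offset. They gave 4.56% and 2.91% with TMM of the chromosome, 5.19% and 2.6% with edgeR, and 3.4% and 0.999% with DESeq2. In Paused, size factors gave 30, 30 and 21, the offset 14 (both), TMM of the chromosome 27 (Smad2_KO1) and 18 (both), and edgeR 32, 33 and 22. DESeq2 gave 12 (both). For both clones, all Paused intervals gave 8.87% lower and 5.92% higher with size factors, and 5.08% and 4.54% with the offset. They gave 8.08% and 6.21% with TMM of the chromosome, 9.02% and 5.5% with edgeR, and 6.51% and 2.39% with DESeq2. A log2 change of at least 1 left 1, 2 and 1 in Ctrl and 0, 1 and 0 in Paused. Knockouts as 1 group gave 28 in Ctrl and 31 in Paused, and knockouts averaged by replicate number 18 and 16. Shares of all intervals were not counted for these runs, for a change of at least 1, or by clone under any alternative. Those counts therefore have no background beside them. Gene bodies without extension held 5 and 5 of the calls in both clones. Without WT replicates 1 and 4, an alternative chosen after seeing the data by their high Hox sums in Paused, counts were 7 (Smad2_KO1) and 6 (both) in Ctrl and 4, 6 and 2 in Paused, and without WT replicates 3 and 4 they were 5, 7 and 4, and 8, 7 and 2. Leaving out 1 library gave 7 to 21, 12 to 17 and 6 to 12 in Ctrl, and 7 to 19, 6 to 23 and 3 to 11 in Paused. Of cluster log2 ratios in Ctrl, size factors gave -0.33 in HoxB (Smad2_KO1), and -0.33 and -0.29 in HoxC, TMM of the chromosome -0.29 in HoxA and -0.31 in HoxC (Smad2_KO1), and unextended bodies -0.35 and -0.35 in HoxC. Matching at 80% of each left 2 intervals called in both tables. The cause of these shifts was not tested. No label gives shared replicate numbers a meaning, so the main fit did not take the numbers to pair the libraries. Same-number correlations between lines ran from -0.01 to 0.19. Their means lay above those of different numbers in every pair of lines, most in Paused Smad2_KO1 with Smad2_KO2 (0.11 against -0.04). Whether libraries of the same number share an effect was not tested. The replicate block gave 22, 17 and 13 calls in Ctrl and 17, 21 and 11 in Paused. For both clones, all intervals then gave 3.48% lower and 4.49% higher in Ctrl, and 5.81% and 10.4% in Paused. The lowest decile of tested intervals had a mean signal of 5.95 to 10.9 in Ctrl and 6.32 to 11.9 in Paused, and held 10 and 13 Hox intervals.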
